A study of Mus musculus with 31 samples.

Results

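The genes described here are those of major histocompatibility complex (MHC) antigen presentation, measured by bulk RNA-seq in leukocytes sorted from irradiated and mock-irradiated mouse mammary tumours. Members were every row whose symbol begins with H2-, the mouse MHC prefix, together with B2m, Tap1, Tap2, Tapbp, Tapbpl, Psmb8, Psmb9, Psmb10, Erap1, Nlrc5, Ciita, Cd74 and Ifi30. Of 38406 rows, 57 met that rule, and the 37 with a mean of at least 1 CPM (read counts scaled to the library total) over all 31 libraries were kept: 24 class I genes, 12 class II genes and 1 other H2- row. The tumours were AT3-OVA, a triple negative mammary line that carries ovalbumin, grown in the mammary fat pad of wildtype female C57BL/6 mice, whose age the sources used here do not give. Irradiated tumours received 3 daily fractions of 4 Gy (3x4Gy, 6 libraries at day 5) or a single dose of 20 Gy (1x20Gy, 6 libraries at day 5 and 7 at day 13 after the last fraction). Mock-irradiated controls were anaesthetised in the same way without radiation, as 3x0Gy (4 libraries, day 5) or 1x0Gy (4 libraries at each day). All cells were sorted on CD45.2, the pan-leukocyte surface marker, so a library holds the mixed immune cells of a tumour. Nothing in the labels says whether libraries of a group came from separate mice.

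Class I molecules are a polymorphic heavy chain paired with beta-2-microglobulin, found on nearly all nucleated cells, and present peptides from inside the cell to CD8 T cells and NK cell receptors. Their peptides are cut by the proteasome, pumped into the endoplasmic reticulum by the transporter TAP, trimmed and edited onto the heavy chain, and the activator NLRC5 drives many of the genes. Class II molecules are pairs of an alpha and a beta chain made mainly by dendritic cells, macrophages and B cells, loaded in endosomes through the invariant chain CD74 and the exchange factor H2-DM, under the control of the activator CIITA, and are read by CD4 T cells.

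Libraries held 2641229 to 7541144 counts in genes. Ptprc, which encodes the sorted CD45 antigen, was counted in all 31 libraries, with group means of 621 (3x0Gy), 1148 (3x4Gy), 821 and 891 (1x0Gy and 1x20Gy, day 5) and 696 and 773 CPM (the same, day 13). One control stood apart: in 3x0Gy library 2, 5.65% of uniquely placed reads lay outside genes against 15.9% to 32.0% in the other 30. Class II genes took 4.94% of its counts, the highest share of any library. The share of reads outside genes was also lower in the mock groups than in the irradiated ones, with means of 16.1% (3x0Gy), 24.1% (3x4Gy), 16.9% (1x0Gy, day 5), 23.5% (1x20Gy, day 5), 20.4% (1x0Gy, day 13) and 25.8% (1x20Gy, day 13). Day 5 and day 13 libraries carry different experiment codes, so levels at the 2 days cannot be told apart from the experiments and were not compared.

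Among the 20 rows below the threshold, 13 had no count in any library, which allows a level of up to 0.0215 CPM over all 31 libraries together (3 counts, counting error only). They include H2-Ea-ps, the alpha chain that would pair with H2-Eb1 and that is a pseudogene in this strain's MHC haplotype, and the genes of the H2-M10 family. The row nearest below the threshold was H2-Q2 at 0.593 CPM and the nearest above it was H2-Q10 at 1.25 CPM, a class I-like row that was also the only kept member with a group mean below 1 CPM. H2-Ke2 is a synonym of Pfdn6, a prefoldin subunit with no part in presentation, and is counted but not described further. By gene position in GENCODE M21 (GRCm38), 28 of the kept members lie on chromosome 17, where the mouse MHC is, and B2m on chromosome 2, Tapbpl on chromosome 6, Nlrc5, Psmb10 and Ifi30 on chromosome 8, Erap1 on chromosome 13 and Ciita on chromosome 16 lie outside it, as does Cd74. In the same annotation H2-K2 is a transcribed pseudogene, and H2-Q5 and H2-T10 are polymorphic pseudogenes. These rows were kept, at means of 2.96, 2.80 and 4.77 CPM, and enter the class I medians and counts below. Several rows share sequence or exons. The class I heavy chains are close copies of each other. H2-DMb1 and H2-DMb2 are duplicated genes. Exons overlap between Tap1 and Psmb9, Tap2 and Gm15821, Tap2 and Gm20496, and Psmb8 and Gm20496. They also overlap between H2-Q4 and Gm11131, H2-T10 and BC023719, and H2-T22 and A930015D03Rik. Each of these pairs lies on opposite strands. How the authors' counting split such reads between strands is not given in the sources used here, so the single values of these rows are uncertain.

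Promoter sequence was available in the RefSeq table (GRCm38.p6) for 26 of the 37 members, and was searched for elements by which the 2 classes are known to be controlled. In the 250 bases before the start, on both strands, the letters GATTGG, the Y box bound by the factor NF-Y, occurred in 7 of 9 class II promoters and 9 of 17 class I promoters, against 14.6% of all 32851 promoters in the table. The X box core, searched as AGNAAC, 1 base of any kind and GATG, read by the RFX complex with which CIITA and NLRC5 work, occurred in 3 of 9 class II promoters (H2-Eb1, H2-Eb2 and H2-DMb1), in none of the 17 class I promoters and in 0.259% of all promoters. An interferon-stimulated response core, searched as GAAA, 2 bases of any kind and GAAA, was found in 3 of 17 class I promoters (B2m, H2-T22 and H2-T23), none of the 9 class II promoters and 2.98% of all. The NF-kB site, searched as GGG, 2 bases of any kind and TTTCC, was found in B2m and H2-Q4 and in 1.41% of all, and the GC box GGGCGG in Psmb9, Tap1, Tapbp and Ifi30 and in 32.7% of all. These matches are descriptions of letters and not of binding. Each search used 1 fixed pattern and misses variants of an element, so a promoter without a match is not shown to lack that element. The bases from 140 to 31 before the RefSeq start are shown for 5 of the members described below, 5′ to 3′ on the gene's strand, with matches to any of the 5 motifs in capitals on either strand, so that CCAATC in H2-Q6 is the Y box read on the other strand. Only windows that no annotated exon overlaps are shown. The H2-DMb2 window lies inside the span of that gene in GENCODE (34143307 to 34151555). B2m is shown as the class I light chain with 3 kinds of match, H2-Q6 as a class I-like gene that rose after 1x20Gy, H2-Aa and H2-Eb1 as class II chains and H2-DMb2 as the exchange factor gene that rose with both regimens.
B2m (chr2:122147547-122147656, + strand): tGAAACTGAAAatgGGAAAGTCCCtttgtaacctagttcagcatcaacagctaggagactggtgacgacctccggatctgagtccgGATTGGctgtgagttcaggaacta
H2-Q6 (chr17:35424710-35424819, + strand): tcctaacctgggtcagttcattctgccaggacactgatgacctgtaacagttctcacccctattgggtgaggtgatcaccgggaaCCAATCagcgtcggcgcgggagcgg
H2-Aa (chr17:34287854-34287963, - strand): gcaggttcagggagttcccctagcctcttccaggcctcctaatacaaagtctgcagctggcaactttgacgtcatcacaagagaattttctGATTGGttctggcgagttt
H2-Eb1 (chr17:34305727-34305836, + strand): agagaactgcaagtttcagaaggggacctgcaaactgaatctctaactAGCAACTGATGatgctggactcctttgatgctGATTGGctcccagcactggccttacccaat
H2-DMb2 (chr17:34145109-34145218, + strand): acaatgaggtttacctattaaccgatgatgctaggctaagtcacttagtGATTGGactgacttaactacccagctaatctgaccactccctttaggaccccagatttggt
In B2m the response core and the NF-kB site lie next to each other and before the Y box, and in H2-Eb1 the X box lies before the Y box.

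Per kilobase of annotated exon, B2m, H2-K1, Cd74 and the class II chains H2-Eb1, H2-Aa and H2-Ab1 stood above the other members. In the day 5 1x0Gy controls, B2m was at 6195 ± 784 CPM per kb (SD, n = 4), H2-Eb1 at 5961 ± 628, H2-Aa at 5602 ± 758, H2-Ab1 at 4534 ± 835, H2-K1 at 3659.5 ± 299 and Cd74 at 3059 ± 393. Each neighbouring pair among these 6 differed by less than the sum of its SDs. H2-D1, the second classical class I heavy chain of this strain, was lower at 1087 ± 93.8 CPM per kb, and the class Ib gene H2-Q7 was at 824 ± 116. The class II chain H2-Eb2 was at only 0.745 ± 0.222. Most of the peptide supply genes formed a middle range. Tapbp was at 283 ± 33.2, Psmb8 at 236 ± 24, Psmb10 at 177 ± 14.6, Psmb9 at 171 ± 49.7, Tap1 at 155 ± 20.7 and Tap2 at 71.4 ± 37.2. Tapbpl at 27.8 ± 8.06 and Erap1 at 8.11 ± 0.489 were below that range. Both activators were low, Ciita at 6.51 ± 1.92 and Nlrc5 at 5.26 ± 0.778 CPM per kb. The H2-DMb1 row stood above its partner chain H2-DMa (436 ± 35 against 95.4 ± 16.3), and H2-DMb2 was below both at 35.1 ± 2.58. H2-Oa at 12.4 ± 1.64 and H2-Ob at 6.89 ± 1.38, the chains of the H2-DM inhibitor H2-DO, were lower still.

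**Figure D1:**
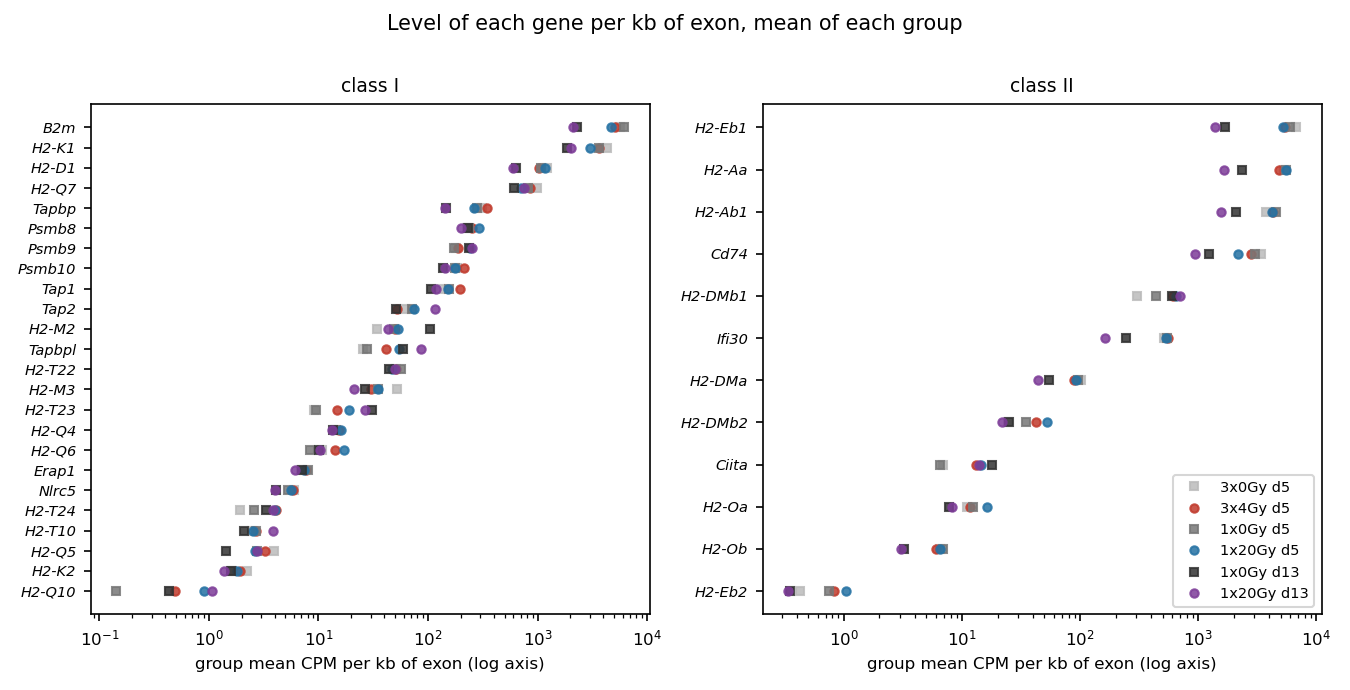
Mean level of each class I gene (left) and class II gene (right) in each of the 6 groups, in CPM per kb of exon on a log axis, with squares for mock and circles for irradiated groups. B2m, H2-K1 and the class II chains H2-Eb1, H2-Aa and H2-Ab1 lead, while the activators Nlrc5 and Ciita lie orders of magnitude lower; days differ also in experiment.

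The members differed in how far libraries of a group spread. The median over the 6 groups of the coefficient of variation was 9.56% for Psmb10, 10.7% for Tap1, 11.3% for H2-D1 and 13% for Nlrc5, but 49.1% for Tap2, 53.6% for Ciita and 72.4% for H2-Q10, the last of which had at most 25 counts in a library. A change of a given size was therefore harder to detect in Tap2 and Ciita than in Tap1 or Nlrc5.

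After 3x4Gy at day 5, 4 of the 37 members rose and none fell: Tap1, one chain of the peptide transporter, Tapbpl, the TAPBPR peptide editor, and H2-DMb1 and H2-DMb2, the beta chains of H2-DM. Over all genes 12.3% were called in that comparison, 5.20% higher and 7.09% lower, so the members' share of 4 of 37 is near the background. The median log2 fold change was 0.08 over the 24 class I genes and 0.11 over the 12 class II genes, beside -0.004 over all 12021 genes tested, with 14 of 24 and 7 of 12 above 0. The groups' libraries did not overlap for 2 members, both higher after irradiation (Tap1 and H2-DMb2), against 9.59% of all genes, 3.92% higher and 5.67% lower. H2-T24, a class I-like row, missed the threshold at log2 fold change 1.03, SE 0.34, adjusted p = 0.0544. Calls here and below are from edgeR's quasi-likelihood test with Benjamini-Hochberg adjustment over all genes, at an adjusted p below 0.05. With the share of reads outside genes as a covariate, which moves with the groups as given above, only Tap1 of the 4 was called, and the class II median was 0.28 with 11 of 12 above 0. The class II values rested on 1 control: without 3x0Gy library 2, 12 of 12 class II genes were above 0 with a median of 0.33, while the class I median was 0.08. Without that library H2-Aa, H2-Eb1, Cd74, H2-DMa and H2-Ob turned from below to above 0.

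After 1x20Gy at day 5, 5 of 37 members rose and none fell: Tapbpl, H2-DMb2 and the class I-like rows H2-Q6, H2-Q10 and H2-T23. Over all genes 8.48% were called, 3.60% higher and 4.87% lower. The class I median was 0.07, with 14 of 24 above 0, and the class II median -0.02, with 5 of 12 above 0, beside 0.02 over all genes. Libraries did not overlap for 6 members, of which 4 were higher (Psmb8, H2-Q6, H2-DMb2 and H2-Oa) and 2 lower (B2m and H2-K1), against 11.5% of all genes, 5.43% higher and 6.08% lower. With the share of reads outside genes as a covariate none of the 37 members was called in this comparison by edgeR, and the class II median turned to 0.20 with 9 of 12 above 0. It also turned to 0.07 without 1x0Gy library 4, with 9 of 12 above 0, and to smaller values above 0 without 1x0Gy library 3 or 1x20Gy library 2 or 4. With all libraries and no covariate, DESeq2 and limma voom called 5 and 3. In edgeR 8 members, beside 22.8% of all genes, then had an unadjusted p below 0.05. Without 1x20Gy library 4 the number of members called by edgeR was 2, and without 1x20Gy library 5 or 6 or 1x0Gy library 1, 3 or 4 it was 1. All genes called dropped from 1019 to 582 without 1x0Gy library 3 and to 556 without 1x0Gy library 4.

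At day 13 after 1x20Gy, 34 members were tested, since H2-Q10, H2-Q5 and H2-Eb2 had too few counts in those libraries. Tap2 and Tapbpl rose, and H2-M2, a class I-like row, H2-Aa, the class II alpha chain, and Ifi30, the lysosomal thiol reductase GILT, fell. Over all genes 8.05% were called, 4.22% higher and 3.83% lower. Class I was centred at -0.003 with 11 of 22 above 0, whereas 9 of 11 class II genes were below 0 with a median of -0.31, beside 0.01 over all 11071 genes tested. With the covariate the class II median was -0.13 with 4 of 11 above 0 and the class I median 0.17, and with library size scaling, which lowered all genes, the class II median was -0.55 with 0 of 11 above 0. Of those tested, libraries did not overlap for Tapbpl, which was higher, and for H2-M2 and Ifi30, which were lower, against 7.28% of all genes, 3.31% higher and 3.97% lower. Without 1x0Gy library 3 none of the 34 was called by edgeR and 306 of all genes were called in place of 891. With all libraries 8 members, beside 23.3% of all genes, had an unadjusted p below 0.05 and DESeq2 and limma voom called 6 each. Without 1x0Gy library 2 the count was 2, with 588 of all genes, and without 1x0Gy library 4 it was 3.

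**Figure D2:**
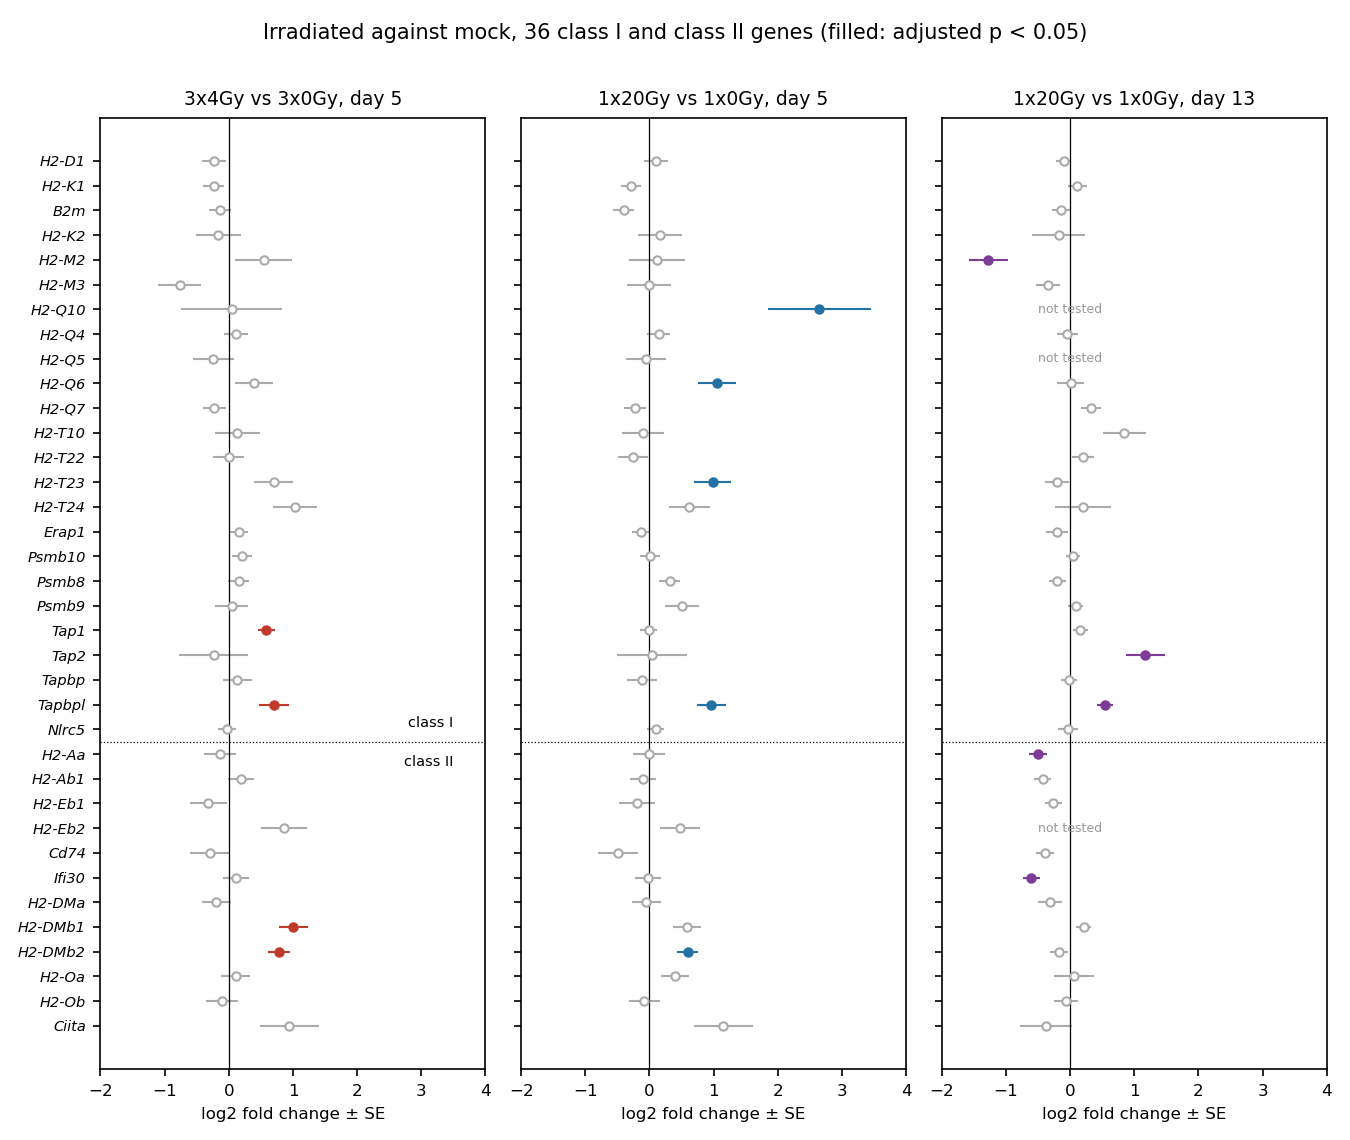
Log2 fold change of irradiated over mock libraries for the 36 class I and class II genes in the 3 comparisons, with bars of 1 SE; filled points have an adjusted p below 0.05. Tapbpl is filled in all 3 panels at 0.70, 0.96 and 0.55, and most class II points at day 13 lie left of 0.

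The classical class I chains were not called with either regimen. H2-K1 was at 7290.5, 9085, 6317 and 5887 CPM in the 4 3x0Gy libraries and 4061 to 7659 CPM with a median of 6200.2 in the 6 3x4Gy libraries. In the 1x20Gy comparison at day 5 it was at 5435, 6367, 5894 and 6529 CPM in mock and 4583 to 5405 CPM with a median of 4929.8 in irradiated libraries. Every 1x20Gy library lay below every mock library, yet the change did not pass the test (log2 fold change -0.29, SE 0.16, adjusted p = 0.302). At day 13 H2-K1 was at 2759, 2794, 3295 and 3527 CPM in mock and 2306 to 4099 CPM with a median of 3424 in irradiated libraries, which overlapped (log2 fold change 0.11, adjusted p = 0.692). After 3x4Gy the value was -0.23 (adjusted p = 0.355).

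H2-D1 lay within the range of its controls or overlapped it throughout. It was at 2660.2, 3270.5, 1969 and 2322 CPM after 3x0Gy and 1214 to 3103 CPM with a median of 2125 after 3x4Gy. The day 5 values were 2019, 2264, 2379 and 2475 CPM after 1x0Gy and 2093 to 2822 CPM with a median of 2512 after 1x20Gy at that time, and the day 13 values were 1272, 1273, 1416 and 1397 CPM and 1027 to 1414 CPM with a median of 1264. Its log2 fold changes were -0.23, 0.10 and -0.10 for 3x4Gy, 1x20Gy at day 5 and 1x20Gy at day 13, with adjusted p of 0.436, 0.808 and 0.644. In bulk libraries, fewer cells of a type and less RNA per cell cannot be told apart, here or for any member.

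B2m, the light chain shared by all class I molecules, was at 4386, 6292, 4430.5 and 4302 CPM after 3x0Gy, where library 2 was the high one, and 3609.6 to 5799 CPM with a median of 4061 after 3x4Gy. In the single-dose groups of day 5 it was at 5515, 4928, 4677 and 6190.3 CPM after 1x0Gy and 3385 to 4545 CPM with a median of 4143 after 1x20Gy. All 6 irradiated libraries were below all 4 mock libraries, and the change missed the threshold (log2 fold change -0.40, SE 0.16, adjusted p = 0.14). It passed when only those 2 groups were fitted or when libraries were scaled by total counts, with the lowest adjusted p over the alternatives at 0.018. At day 13 the values were 1752, 1743, 2334 and 2137 CPM and 1282 to 2203 CPM with a median of 1829, which overlapped (log2 fold change -0.14, SE 0.14, adjusted p = 0.596).

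Nlrc5, the class I activator, varied little. It was at 47, 49, 56.4 and 42.4 CPM (3x0Gy), 37.8 to 55.7 CPM with a median of 47.1 (3x4Gy), 43.2, 49.6, 43.8 and 34.3 CPM (1x0Gy, day 5) and 39.8 to 56.3 CPM with a median of 43.5 (1x20Gy, day 5). The day 13 values were 29.9, 25.2, 45.8 and 32.4 CPM in mock and 26.6 to 36.2 CPM with a median of 32.8 in irradiated libraries. Irradiated and mock libraries overlapped in all 3 comparisons, and the 95% intervals of its log2 fold change were -0.30 to 0.24, -0.17 to 0.36 and -0.33 to 0.28.

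The peptide transporter is made of Tap1 and Tap2. Tap1 was at 362, 424, 379 and 364 CPM after 3x0Gy and 459 to 737 CPM with a median of 550.1 after 3x4Gy. All 6 irradiated libraries exceeded all 4 mock libraries (log2 fold change 0.58, SE 0.13, adjusted p = 0.00561). The call held when each of the 10 libraries was left out in turn, with the highest adjusted p at 0.0231. It was lost, at an adjusted p of 0.0551, when only these 2 groups were fitted. After 1x20Gy Tap1 lay inside its control range at day 5 (506, 507, 379.7 and 439 CPM against 405 to 492 CPM with a median of 463, log2 fold change -0.01). In the later groups it was at 302, 286, 332 and 341 CPM in mock and 313 to 455 CPM with a median of 342 in irradiated libraries, with overlap and a log2 fold change of 0.16 (adjusted p = 0.461). The difference between the 3x4Gy and 1x20Gy responses at day 5 was 0.60 on the log2 scale (SE 0.19), with an unadjusted p of 0.00399 and an adjusted p of 0.735, so the Tap1 response was not shown to differ between regimens.

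Tap2, the partner chain, scattered widely at day 5 and rose at day 13. It was at 30.6, 262, 268 and 284 CPM after 3x0Gy and 28.8 to 370.3 CPM with a median of 175 after 3x4Gy, with the low values in library 1 of each group. For the single dose at day 5 it was at 361, 277, 62.4 and 283 CPM after 1x0Gy and 131 to 351 CPM with a median of 254 after 1x20Gy. These overlapped, and the 95% intervals of the changes were wide (-1.30 to 0.83 and -1.02 to 1.11). At day 13 Tap2 was at 219, 132, 158 and 199 CPM in mock and 163 to 703 CPM with a median of 377 in irradiated libraries, of which 6 of 7 exceeded every mock library (log2 fold change 1.17, SE 0.30, adjusted p = 0.0262). Without 1x0Gy library 2, 3 or 4 the call was lost, with the highest adjusted p at 0.0991. Exons of Tap2 overlap Gm15821 and Gm20496, so reads of these genes cannot be separated here.

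Tapbpl was the only member called in all 3 comparisons, of which those at day 5 were fitted together. It was at 74.1, 51.3, 53.3 and 61.7 CPM after 3x0Gy and 73.7 to 149 CPM with a median of 90.6 after 3x4Gy. The lowest 3x4Gy library lay just under the highest mock library (log2 fold change 0.70, SE 0.23, adjusted p = 0.0455). This call was lost without any 1 of 3x4Gy libraries 4, 5 or 6 or 3x0Gy libraries 2, 3 or 4, with adjusted p up to 0.114, and under 6 of 9 other settings.

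After 1x20Gy at day 5 Tapbpl was at 71.3, 87.2, 42.2 and 60.4 CPM in mock and 74.9 to 163 CPM with a median of 129 in irradiated libraries. Of the 6 irradiated libraries 5 lay above all controls (log2 fold change 0.96, SE 0.23, adjusted p = 0.00981). The call was lost only without 1x0Gy library 3 (adjusted p = 0.0523) and with the covariate (0.0601). By day 13 its level was 150.1, 152, 107 and 143 CPM in mock and 170.3 to 233 CPM with a median of 201 in irradiated libraries, which did not overlap (log2 fold change 0.55, SE 0.13, adjusted p = 0.0143). There too the call was lost without 1x0Gy library 3, at an adjusted p of 0.0688. It was also lost under library size scaling and with the covariate, at up to 0.0944. Its relative Tapbp, tapasin of the loading complex, was not called, at 0.14, -0.11 and -0.02, nor was the trimming peptidase Erap1, at 0.16, -0.14 and -0.21.

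The 3 immunoproteasome subunits were not called in any comparison. Psmb9 was at 155, 305, 241 and 283 CPM after 3x0Gy and 105 to 390.4 CPM with a median of 260.3 after 3x4Gy, with the lowest value of each group in library 1. On day 5 its level was 229, 272, 138 and 287 CPM after 1x0Gy and 245 to 387 CPM with a median of 341 after 1x20Gy (log2 fold change 0.50, SE 0.26, adjusted p = 0.261). The groups overlapped through 1x20Gy library 2, as they did at day 13, where Psmb9 was at 301, 272, 369 and 341 CPM and 301 to 386 CPM with a median of 354. Psmb8, another catalytic subunit of the immunoproteasome, was higher in all 6 1x20Gy libraries than in all 4 mocks at day 5 but did not pass the test (log2 fold change 0.31, SE 0.16, adjusted p = 0.257), and it stood at 0.15 after 3x4Gy and -0.20 at day 13. Psmb10 was at 0.21, 0.01 and 0.05.

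**Figure D3:**
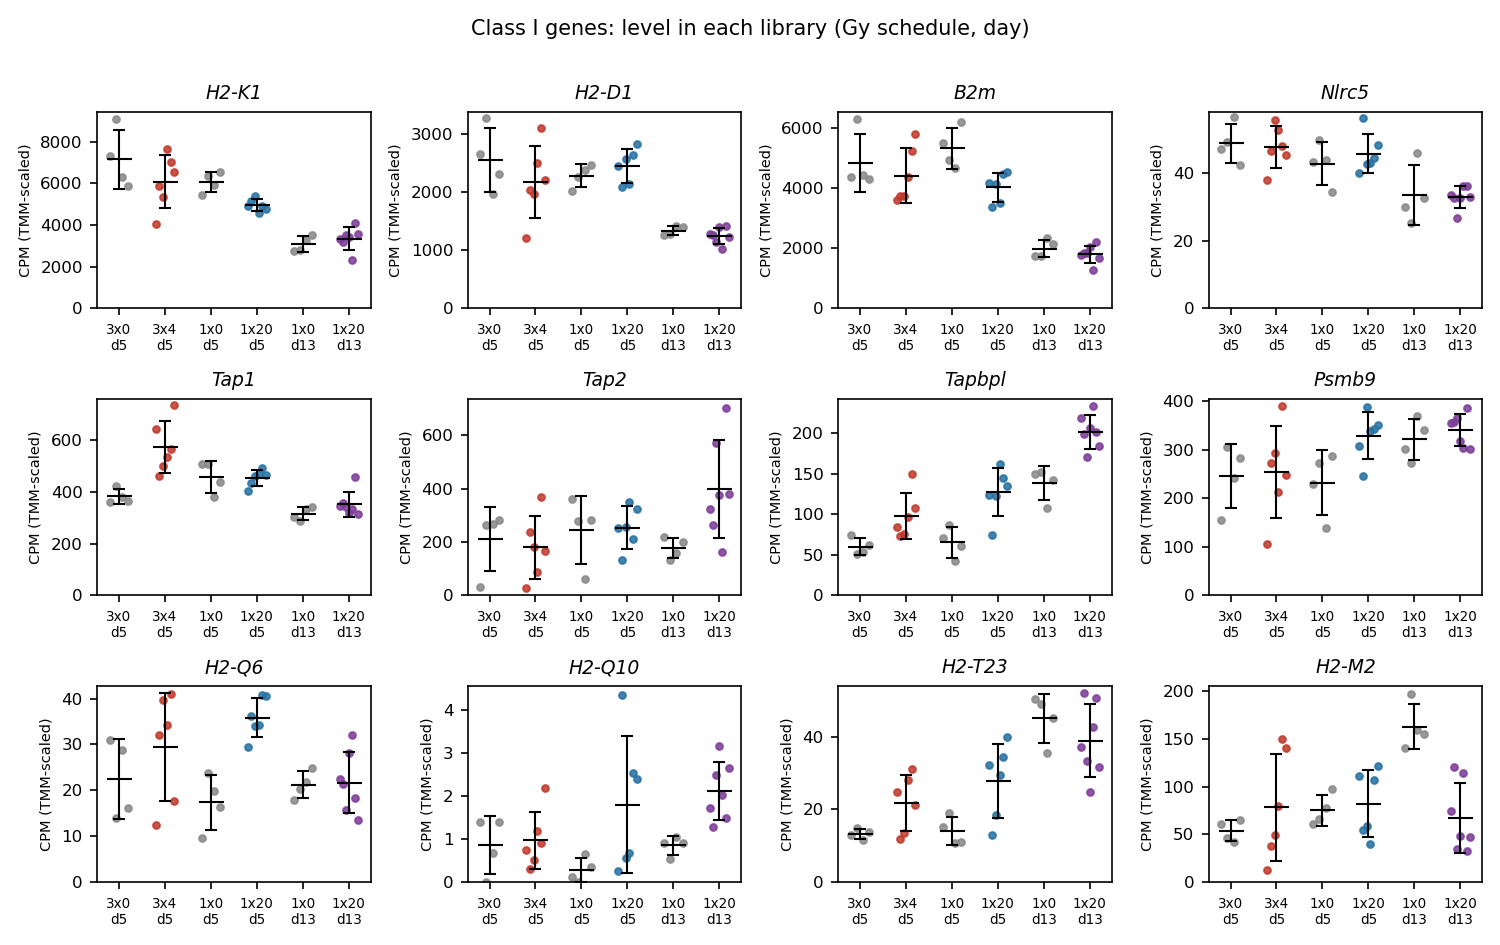
Class I genes in every library, in CPM scaled by TMM on a linear axis from 0, with the mean and SD of each of the 6 groups (grey for mock). Tap1 is high in all 6 3x4Gy libraries, and Tapbpl is high in most irradiated libraries of each pair.

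Of the 12 class I-like rows, H2-Q6, H2-Q10 and H2-T23 rose after 1x20Gy at day 5 and H2-M2 fell at day 13. H2-T23 encodes Qa-1, which presents peptide to the NK cell receptor of CD94 and NKG2A. It was at 15.2, 19, 10.8 and 11.1 CPM after 1x0Gy and 12.9 to 39.9 CPM with a median of 30.9 after 1x20Gy, with 2 irradiated libraries inside the control range (log2 fold change 0.98, SE 0.29, adjusted p = 0.0377). After 3x4Gy it was at 11.8 to 31.1 CPM with a median of 23.1 against 12.9, 15, 11.6 and 13.8 CPM, and the change was not called (log2 fold change 0.70, SE 0.30, adjusted p = 0.13). By day 13 it stood at 50.4, 49.1, 35.6 and 45.1 CPM in mock and 24.8 to 52 CPM with a median of 37.2 in irradiated libraries, with overlap and a log2 fold change of -0.21 (adjusted p = 0.55). The 1x20Gy response at day 13 minus that at day 5 was -1.17, with an adjusted p of 0.12.

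H2-Q6 belongs to the Qa-2 group of non-classical heavy chains. It was at 9.55, 23.8, 19.8 and 16.4 CPM after 1x0Gy and 29.4 to 40.7 CPM with a median of 35.2 after 1x20Gy at day 5, without overlap (log2 fold change 1.05, SE 0.30, adjusted p = 0.0294). It was at 31, 13.9, 28.9 and 16.1 CPM after 3x0Gy and 12.5 to 40.9 CPM with a median of 33.1 after 3x4Gy, with overlap and a log2 fold change of 0.40 (adjusted p = 0.392). At day 13 it was at 18, 20.4, 21.9 and 24.8 CPM and 13.5 to 32.1 CPM with a median of 21.4, again overlapping (0.01). Its close copy H2-Q7, with far more counts, was at -0.22, -0.22 and 0.32 and was not called, and reads of the copies may have been assigned to either or to neither.

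H2-Q10, a heavy chain known as a secreted liver product, was called on few counts. It was at 0.127, 0, 0.653 and 0.357 CPM after 1x0Gy (0 to 4 counts) and 0.26 to 4.34 CPM with a median of 1.54 after 1x20Gy (1 to 25 counts), so 2 of 6 irradiated libraries lay within the control range and 4 above it. The fitted value was log2 fold change 2.65, SE 0.81, adjusted p = 0.0429. It was at 1.39, 0, 0.683 and 1.39 CPM after 3x0Gy and 0.315 to 2.18 CPM with a median of 0.833 after 3x4Gy, and at 0.915, 0.537, 1.04 and 0.92 CPM and 1.27 to 3.17 CPM with a median of 2.03 at day 13, where all 7 irradiated libraries stood above the 4 mocks but the row was not tested.

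The calls of these 3 rows each rested on several libraries. That of H2-T23 was lost without any 1 of 7 libraries (1x20Gy 1, 4, 5 and 6, 1x0Gy 1, 3 and 4), with adjusted p up to 0.138. That of H2-Q6 was lost without any 1 of 6 (1x20Gy 4, 5 and 6, 1x0Gy 1, 3 and 4), up to 0.109. That of H2-Q10 was lost without 1x0Gy library 1, 2 or 4, up to 0.122, among only 7 of 10 left-out fits in which the row had enough counts to be tested. Other settings ended these calls too, 3 of 9 for H2-T23, 2 of 9 for H2-Q6 and 3 of 8 for H2-Q10.

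H2-M2, a class I-like gene telomeric to the classical cluster, was at 141, 196, 159 and 155 CPM in the day 13 mocks and 33 to 120.0 CPM with a median of 48.1 in the 7 irradiated libraries. No irradiated library reached the lowest mock (log2 fold change -1.28, SE 0.30, adjusted p = 0.0165), and the call was lost without 1x0Gy library 2 or 3, with adjusted p up to 0.0562. At day 5 it scattered, at 60.5, 46.2, 42.5 and 65.1 CPM (3x0Gy), 12.5 to 149.8 CPM with a median of 64.2 (3x4Gy), 60.7, 65.9, 77.1 and 97.5 CPM (1x0Gy) and 40.0 to 122 CPM with a median of 83 (1x20Gy), and neither change was called (0.54 and 0.12). The other 8 class I-like rows (H2-K2, H2-M3, H2-Q4, H2-Q5, H2-Q7, H2-T10, H2-T22 and H2-T24) were not called in any comparison they were tested in, with values from -0.76 for H2-M3 to 1.03 for H2-T24, both after 3x4Gy. The 3x0Gy libraries of H2-M3 spread widely (mean 75.0 CPM, SD 57.4). Leaving out 1 library moved its value to between -1.01 and -0.12, and that of H2-T24 to between 0.87 and 1.23.

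The class II chains overlapped their controls at day 5, and H2-Aa fell at day 13. H2-Aa was at 5773, 9181, 4372 and 4656 CPM after 3x0Gy and 2875 to 7607 CPM with a median of 5403 after 3x4Gy. At day 5 it was at 5441, 5733, 7008 and 7094 CPM after 1x0Gy and 4565 to 8072 CPM with a median of 6323 after 1x20Gy, with overlap in both comparisons and log2 fold changes of -0.14 and -0.004. The day 13 values were 2206, 2761, 3078 and 2542 CPM in mock and 1548 to 2432 CPM with a median of 1773 in irradiated libraries, of which 6 of 7 lay below every mock (log2 fold change -0.50, SE 0.14, adjusted p = 0.0399). The call was lost without any 1 of 1x20Gy libraries 3, 4, 6 or 7 or 1x0Gy libraries 2, 3 or 4, with adjusted p up to 0.163 and the change between -0.574 and -0.416. It was also lost under 2 of 8 other settings, with adjusted p up to 0.236 and the change as small as -0.32. After 3x4Gy the value turned to 0.13 without 3x0Gy library 2.

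H2-Ab1, the beta chain that pairs with H2-Aa as I-A, missed the threshold at day 13. In the later groups it was at 2125, 2659, 2804 and 2638 CPM in mock and 1574 to 2417 CPM with a median of 1860.1 in irradiated libraries, which overlapped through 1x20Gy libraries 1 and 2 (log2 fold change -0.42, SE 0.13, adjusted p = 0.0595). DESeq2 and limma voom called it, with the lowest adjusted p over the alternatives at 0.00915. The day 5 values were 4644, 5397, 4055 and 4263 CPM (3x0Gy), 3964 to 6664 CPM with a median of 5265 (3x4Gy), 4517, 4854, 5861 and 6747 CPM (1x0Gy) and 3478 to 6615 CPM with a median of 5412 (1x20Gy), all overlapping, with changes of 0.19 and -0.10.

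H2-Eb1 took more counts than any other member, while its partner chain row H2-Ea-ps was at 0. It was at 7324, 23206, 7369 and 7364 CPM after 3x0Gy, where library 2 was far above the other mocks, and 6737 to 11829.5 CPM with a median of 8912 after 3x4Gy. In the single-dose groups of day 5 it was at 9405, 9032, 9943 and 11418 CPM after 1x0Gy and 6087 to 11348 CPM with a median of 8958 after 1x20Gy, and at day 13 at 2480.3, 3034, 2932 and 2752 CPM and 1873 to 2888 CPM with a median of 2286. None of the 3 changes was called (-0.32, -0.20 and -0.26, adjusted p at least 0.245). Without 3x0Gy library 2 the 3x4Gy value of H2-Eb1 turned to 0.30. The minor beta chain H2-Eb2, near the threshold of 1 CPM, was at 0.85 and 0.48 at day 5 and not called.

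Cd74, the invariant chain that blocks the class II groove until the endosome, was at 2295, 11007, 3258 and 2813 CPM after 3x0Gy and 3033 to 4698 CPM with a median of 3930.4 after 3x4Gy. For the single dose at day 5 it was at 4242, 3707, 4319 and 5061 CPM after 1x0Gy and 2138 to 4316 CPM with a median of 3170.2 after 1x20Gy, and at day 13 at 1363, 1692, 2126 and 1767 CPM and 984 to 1606 CPM with a median of 1384. The groups overlapped each time and no change was called (-0.30, -0.49 and -0.39, the last with an adjusted p of 0.106). The 3x4Gy value of Cd74 turned to 0.49 without 3x0Gy library 2, its high control.

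Ifi30, which reduces disulfide bonds of antigens in the lysosome, was at 214, 215, 295 and 245 CPM in the day 13 mocks and 124 to 204 CPM with a median of 157 after 1x20Gy. All 7 irradiated libraries were below all 4 mocks (log2 fold change -0.61, SE 0.13, adjusted p = 0.0119), and the call was lost without 1x0Gy library 3 (adjusted p = 0.069) and with the covariate (0.0568). On day 5 its level was 400.0, 744, 371 and 494 CPM (3x0Gy), 324 to 701 CPM with a median of 555 (3x4Gy), 403, 517, 571 and 652 CPM (1x0Gy) and 435 to 596 CPM with a median of 543 (1x20Gy), with overlap and changes of 0.12 and -0.03.

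H2-DM, which frees class II of the invariant chain fragment and edits its peptides, changed at day 5 in its beta chains. H2-DMb2 was at 39.7, 27.5, 48.9 and 56.1 CPM after 3x0Gy and 60.5 to 91.3 CPM with a median of 71.3 after 3x4Gy, without overlap (log2 fold change 0.78, SE 0.17, adjusted p = 0.00353). It was at 61.1, 67.6, 57.5 and 58.8 CPM after 1x0Gy and 79.2 to 109.6 CPM with a median of 93 after 1x20Gy, again without overlap (log2 fold change 0.60, SE 0.16, adjusted p = 0.0245). By day 13 its level was 43.3, 42.7, 43.9 and 44.4 CPM in mock and 30.1 to 48.4 CPM with a median of 39.5 in irradiated libraries, which overlapped (log2 fold change -0.18). The 3x4Gy call held without each of the 10 libraries in turn (adjusted p at most 0.017) and was lost with the covariate (0.0566). The 1x20Gy call was lost without any 1 of 7 (1x20Gy 3, 4, 5 and 6, 1x0Gy 1, 3 and 4), with adjusted p up to 0.0873. It was also lost under 5 of 9 other settings, up to 0.146.

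For H2-DMb2 in the mocks, all 4 3x0Gy libraries lay below all 4 1x0Gy libraries, with a log2 difference of -0.50, an unadjusted p of 0.0116 and an adjusted p of 0.836. It was the only member whose mock groups did not overlap, against 3.78% of all genes, 2.01% higher and 1.76% lower in 3x0Gy. The direct comparison of 3x4Gy with 1x20Gy gave -0.31 (adjusted p = 0.711). H2-DMb1 was at 594, 289, 352 and 481 CPM after 3x0Gy and 551 to 1195 CPM with a median of 831 after 3x4Gy, where 1 irradiated library fell below the highest mock (log2 fold change 1.00, SE 0.22, adjusted p = 0.00496). Its call held without each of the 10 libraries, with adjusted p at most 0.0202, and was lost with the covariate (0.107).

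After 1x20Gy at day 5 H2-DMb1 was at 591 to 1173 CPM with a median of 930.4 against 542, 613, 651 and 641 CPM in mock, and the change was not called (log2 fold change 0.58, SE 0.22, adjusted p = 0.108). By day 13 it stood at 827, 1001, 786 and 756 CPM and 815 to 1103 CPM with a median of 992, with overlap and a value of 0.22. The alpha chain H2-DMa was not called, at -0.19, -0.05 and -0.31, and its 3x4Gy value turned to 0.24 without 3x0Gy library 2.

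H2-DO, the inhibitor of H2-DM, was low and was not called. H2-Oa was at 8.70, 15.3, 12.3 and 11.4 CPM after 3x0Gy and 6.75 to 19.5 CPM with a median of 12.9 after 3x4Gy, with overlap. At day 5 it was at 11.1, 15, 13.1 and 14.6 CPM after 1x0Gy and 15.5 to 20.0 CPM with a median of 17.5 after 1x20Gy, where all 6 irradiated libraries lay above the mocks (log2 fold change 0.40, SE 0.22, adjusted p = 0.29). At day 13 it was at 5.80, 5.10, 9.78 and 12.9 CPM and 5.35 to 17.3 CPM with a median of 7.72, with overlap. H2-Ob was at 17.4, 34.7, 21.7 and 17.8 CPM (3x0Gy), 11.5 to 32.6 CPM with a median of 21.3 (3x4Gy), 28.1, 25.4, 26.1 and 17.2 CPM (1x0Gy, day 5), 17.2 to 27.7 CPM with a median of 23.7 (1x20Gy, day 5), 13.7, 10.2, 9.16 and 12.2 CPM (1x0Gy, day 13) and 8.94 to 13.5 CPM with a median of 10.3 (1x20Gy, day 13), with overlap throughout and changes of -0.10, -0.08 and -0.06.

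Ciita, the class II activator, had a higher mean after both regimens at day 5 but did not pass the test. It was at 114, 13.3, 61 and 37.7 CPM after 3x0Gy and 48.2 to 162 CPM with a median of 122 after 3x4Gy (log2 fold change 0.94, SE 0.46, adjusted p = 0.184). It was at 65.6, 66.4, 33 and 49.1 CPM after 1x0Gy and 43.8 to 175 CPM with a median of 133 after 1x20Gy (log2 fold change 1.15, SE 0.46, adjusted p = 0.131), where 4 of 6 irradiated libraries lay above the mocks and 2 among them. The day 13 values were 207, 234, 56.2 and 96.6 CPM and 59.4 to 238 CPM with a median of 79.9, and neither group was tight (log2 fold change -0.37, SE 0.41, adjusted p = 0.641).

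**Figure D4:**
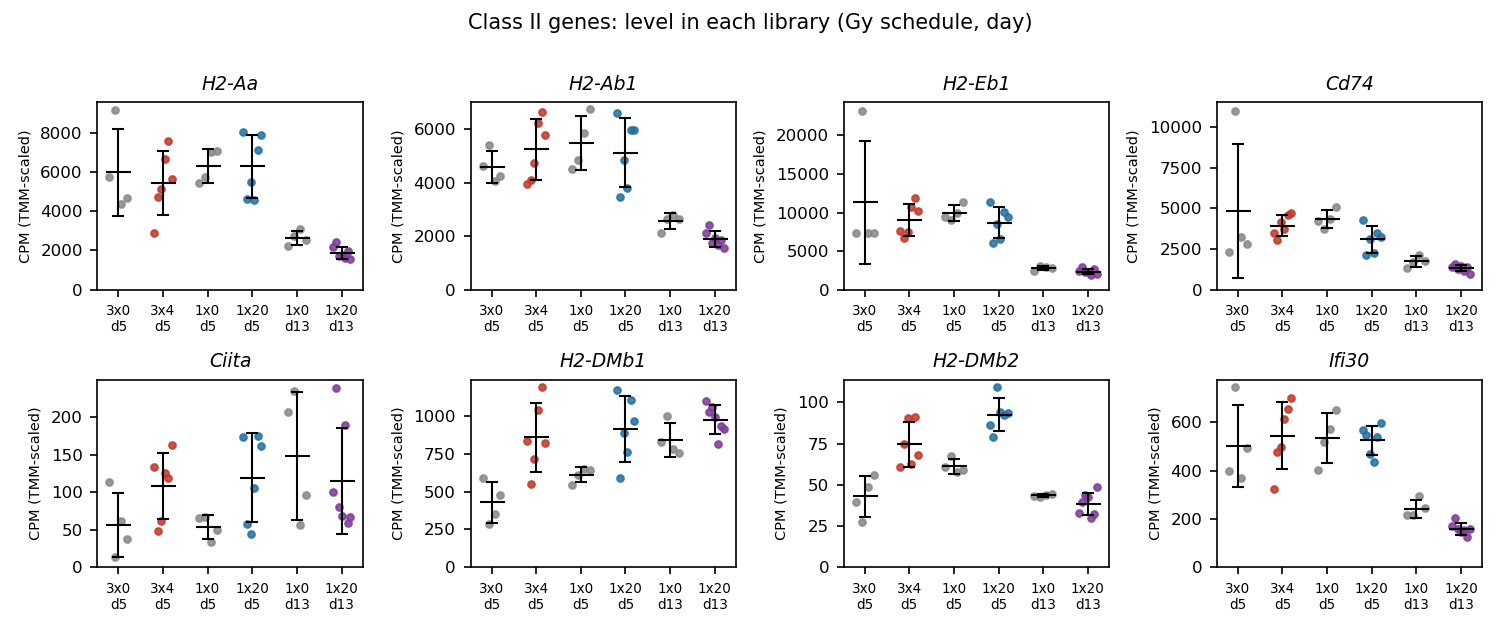
Class II genes in every library, in CPM scaled by TMM on a linear axis from 0, with the mean and SD of each of the 6 groups (grey for mock). H2-DMb2 separates irradiated from mock libraries in both day 5 pairs, Ifi30 separates them at day 13, and 3x0Gy library 2 is the high point of H2-Eb1 and Cd74.

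Whether activator and target levels varied together between libraries was asked with 9 pairs, Nlrc5 with H2-K1, H2-D1, B2m, Tap1 and Psmb9, and Ciita with H2-Aa, H2-Ab1, H2-Eb1 and Cd74, on deviations of log2 CPM from the group mean in 31 libraries. By permutation within groups none of the 9 had an adjusted p below 0.05 (0 also at an unadjusted p below 0.05). For Nlrc5 with H2-K1 Pearson's r was 0.22 (permutation p = 0.253, adjusted 0.648) and Spearman's rho 0.15 (permutation p = 0.464, adjusted 0.913). For Ciita with Cd74 r was -0.28 (permutation p = 0.360, adjusted 0.648) and rho -0.05 (permutation p = 0.812, adjusted 0.913), and without the 2 libraries farthest from the Ciita median r was 0.07. One of those 2 is 3x0Gy library 2, which has the lowest Ciita and the highest Cd74 of its group. For Ciita with H2-Ab1 r was 0.20 (permutation p = 0.292, adjusted 0.648) and 0.26 without the same 2 libraries, and for Nlrc5 with Tap1 r was 0.09 (permutation p = 0.662, adjusted 0.851) and -0.0001 without the 2 libraries farthest from the Nlrc5 median. Within the 20 day 5 libraries and within the 11 day 13 libraries none of the 9 pairs passed either, with adjusted p of at least 0.725 and 0.680.

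**Figure D5:**
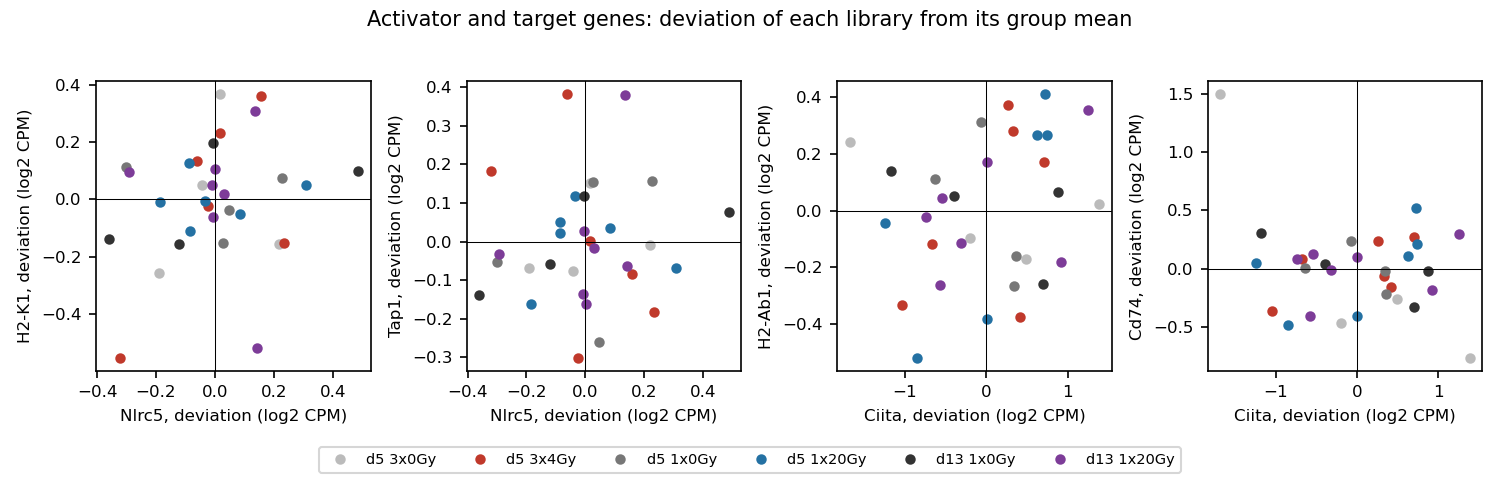
Deviation of each of the 31 libraries from its group mean, in log2 CPM, for an activator (horizontal) and a target (vertical) in 4 of the 9 pairs. No pair shows a relation past the test (r of 0.22, 0.09, 0.20 and -0.28), and the point at the upper left of the Cd74 panel is 3x0Gy library 2.

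Some marker genes of cells that carry class II changed in the same comparisons, in both directions. Over all genes 5.20% were called higher and 7.09% lower after 3x4Gy, and 3.60% and 4.87% after 1x20Gy at day 5. The day 13 shares were 4.22% and 3.83%, and these shares are the background of each marker list below. The summed level of 10 macrophage markers ran from 9174 to 11964 CPM in the day 13 mocks to 6580.3 to 9168 after 1x20Gy, and 4 of the 10 fell (C1qb, C1qc, Csf1r and Apoe) with none higher. The day 5 sums were 7600.2 to 23532 (3x0Gy) and 6188 to 13069.5 (3x4Gy), and 9364 to 15152 (1x0Gy) and 5208 to 13591 (1x20Gy). The 8 mature dendritic cell markers summed to 275 to 341 CPM after 3x0Gy and 485 to 693 after 3x4Gy, which do not overlap. Of all genes taken singly, 9.59% did not overlap in that comparison, 3.92% higher and 5.67% lower. The mature markers summed to 276 to 463 and 403 to 692 after 1x0Gy and 1x20Gy at day 5, and to 183 to 333 and 180.3 to 434 at day 13. After 3x4Gy 2 of those 8 rose (Ccr7 and Socs2), as did Mgl2 and Itgam of the 7 type 2 dendritic cell markers. After 1x20Gy Irf4, Clec10a and Mgl2 of those 7 rose at day 5, with Ccl17 of the mature markers, and Irf4 and Clec10a rose at day 13. Of 7 type 1 dendritic cell markers, 1 rose after 1x20Gy at day 5, with 0 called after 3x4Gy or at day 13. Of 7 plasmacytoid dendritic cell markers, 0 were called after 3x4Gy, 1 fell after 1x20Gy at day 5 and 2 rose at day 13. Of 6 monocyte markers tested, 1 rose and 1 fell after 3x4Gy, and 1 rose after 1x20Gy at each day. The B cell genes Cd79a, Pax5, Blk and Fcer2a had group means below 1 CPM in all 6 groups, while Cd79b and Cd22 had enough counts to be tested. Of these 2, 1 was lower at day 13 by edgeR, DESeq2 and limma voom. After 1x20Gy at day 5, 1 was lower by DESeq2 and by limma voom and 0 by edgeR. After 3x4Gy 0 were called by any of the 3 tools.

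Some markers of lymphocytes and neutrophils changed as well. At day 13, 4 of 7 T cell markers tested rose (Cd3e, Cd2, Lck and Cd28), as did 4 of 7 NK cell markers (Ncr1, Klre1, Klra8 and Eomes) and 3 of 5 neutrophil markers (S100a8, S100a9 and Mmp9), with none lower. In that comparison 4.22% of all genes were called higher and 3.83% lower. The T cell list summed to 313 to 520.0 CPM in the mocks and 511 to 1006 after 1x20Gy, the NK cell list to 151 to 311 and 209 to 562, and the neutrophil list to 39.5 to 90.2 and 95.1 to 240.3. After 1x20Gy at day 5, 3 of 7 T cell markers (Cd2, Cd5 and Cd28) and 2 of 6 neutrophil markers (Cxcr2 and Mmp9) rose. After 3x4Gy Cd5 rose and the NK cell genes Klrb1c and Xcl1 fell.

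Genes of non-immune cells were counted despite the sort. The 7 fibroblast markers summed to 69.3 to 138 CPM after 3x0Gy and 11.8 to 29.5 after 3x4Gy, and all 5 that were tested fell. The 8 epithelial and tumour cell markers summed to 482 to 1107 and 166 to 747, and 2 fell. After 1x20Gy at day 5 the fibroblast sums were 30.7 to 130.4 and 8.51 to 52.6 CPM with 1 of 5 lower (Postn), and the epithelial sums 428 to 622 and 156 to 523 with 4 of 8 lower (Epcam, Krt18, Krt14 and Krt5). At day 13 the fibroblast sums were 22.5 to 52.9 and 10.8 to 23.2 with 3 of 5 lower (Col1a2, Col3a1 and Postn), and the epithelial sums 675 to 909 and 727 to 2099 with Krt14 lower and Cldn4 and Krt19 higher. Of 4 endothelial markers tested, 2 rose after 3x4Gy, 1 rose after 1x20Gy at day 5 and 2 rose at day 13, with 0 lower each time. Ptprc rose after 3x4Gy (log2 fold change 0.89, SE 0.26, adjusted p = 0.0262) and was not called after 1x20Gy at either day. The part of these shifts of leukocyte and other markers in the class I and class II values was not tested.

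No member was called when regimens or days were set against each other. For the 3x4Gy response minus that to 1x20Gy, edgeR called 0 of 37 members and 0% of all genes, with 2 members (Tap1 and H2-Q10) and 5.95% of all genes at an unadjusted p below 0.05 and 0 called by DESeq2 or limma voom. For 3x4Gy directly against 1x20Gy it called 0 of 37 and 0.0250% of all genes (0.0166% higher and 0.00832% lower), with 3 members and 6.87% of all genes at an unadjusted p below 0.05 and 0 by the other tools. The 95% interval of the direct difference was 0.01 to 0.58 for H2-K1, -0.16 to 0.42 for B2m, -0.31 to 0.38 for H2-Ab1 and -0.92 to 0.64 for Ciita. These intervals are not adjusted over genes, and that of H2-K1 excludes 0 with an adjusted p of 0.746. Between the mock groups 0 of 37 members and 0% of all genes were called, with 2 members (H2-DMb1 and H2-DMb2, both lower in 3x0Gy) and 5.52% of all genes at an unadjusted p below 0.05 and 0 by the other tools.

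The 1x20Gy response at day 13 minus that at day 5 gave 0 calls among 37 members by edgeR and 0.423% of all genes (0.207% higher and 0.216% lower), with 9 members and 12.4% of all genes at an unadjusted p below 0.05, 1 called lower by DESeq2 and 0 by limma voom. The values with the smallest p were H2-DMb2 at -0.75 (adjusted p = 0.109) and H2-T23 at -1.17 (adjusted p = 0.12). Ciita was at -1.51 (adjusted p = 0.316) and H2-Aa at -0.47 (adjusted p = 0.577), so the lower class II values of day 13 were not shown to differ from the day 5 response. This comparison shares its libraries with the day 5 and day 13 comparisons, and day and experiment cannot be told apart in it.

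Genes that act on or beside the members came from 9 lists. Over all genes 12.3% (3x4Gy), 8.48% (1x20Gy, day 5) and 8.05% (1x20Gy, day 13) were called in either direction. Of 10 regulators of class I, the NF-kB subunits Relb and Nfkb1 rose after 3x4Gy (0.72 and 0.53) and after 1x20Gy at day 5 (0.58 and 0.50), and Relb and the interferon response factor Irf1 rose at day 13 (0.57 and 0.51). None of the 10 fell. Of 7 genes of interferon gamma signalling, the kinase Jak2 rose at day 5 (0.80 and 0.56), and the receptor chain Ifngr1 and the inhibitor Socs1 rose at day 13 (0.95 and 1.01). Of 9 regulators of class II tested, Creb1, which binds class II promoters beside the X box, rose in all 3 comparisons (0.44, 0.46 and 0.53), and the factor Irf4 rose after 1x20Gy at both days (0.88 and 1.11).

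Of 8 proteases and inhibitors of the class II pathway, none rose. Ctsd, the lysosomal protease cathepsin D, fell in all 3 comparisons (-0.97, -1.30 and -0.77), Ctsb, cathepsin B, fell at day 13 (-0.83), and the other 6 genes of that list were not called. Both enzymes are abundant in macrophages, and 4 macrophage markers fell beside them at day 13, whose part in these values was not tested. Of 10 proteasome genes outside the members, the assembly factor Pomp rose after 1x20Gy at day 5 (0.72), and Psmb7, the constitutive counterpart of Psmb10, fell at day 13 (-0.61).

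Of 7 receptors that bind MHC, Lag3, an inhibitory receptor for class II, fell after 1x20Gy at day 5 (-2.32). Lag3 was low, with a mean of 3.24 CPM. The CD8 chain gene Cd8b1 and the NK receptor genes Klrd1 and Klrc1 rose at day 13 (1.12, 1.20 and 1.18). Klrd1 and Klrc1 encode the receptor for Qa-1, whose gene H2-T23 was not called at day 13. Of 4 class I-like genes outside the MHC, Mr1, which presents vitamin metabolites to mucosal-associated T cells, fell after 1x20Gy at day 5 (-1.07). Mr1 was also low, with a mean of 3.17 CPM.

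The 10 genes of endoplasmic reticulum loading, among them calreticulin and tapasin's partner Pdia3, gave 0 calls in each of the 3 comparisons by edgeR, DESeq2 and limma voom, with 2, 1 and 0 at an unadjusted p below 0.05, beside 28.3%, 22.8% and 23.3% of all genes. The 4 genes of class II turnover, among them the ubiquitin ligase March1, gave 0 calls by all 3 tools, with 0, 1 and 1 at an unadjusted p below 0.05.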

How the data were processed

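The authors deposited 1 table of raw read counts per gene symbol for each of 31 libraries, with 5 summary lines that were left out of totals. Per the submitters' processing notes, the builds were GRCm38 and mm10, with reads handled by HTSeq 0.9.1, HISAT2 2.0.4, cutadapt 1.5 and bcl2fastq 2.20.0.422. The annotation and strand setting are not given in the sources used here. Reads placed at several positions were not counted.

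Counts were tested in R 4.3.3 with edgeR 4.0.16 (TMM, filterByExpr with a minimum count of 10 and total of 15, quasi-likelihood test, two-sided). The 20 day 5 libraries shared 1 fit, the 11 day 13 libraries had their own, and the day difference used all 31. Calls needed an adjusted p (Benjamini-Hochberg, over all genes) under 0.05. The SE of a log2 fold change is its size over the root of the F statistic. CPM is TMM-scaled within a day's fit, and log2 CPM used a prior count of 2. Pairs used 100000 permutations. Fits were tested on simulated data. Alternatives were DESeq2 1.42.0, limma 3.58.1 (voom), other scalings and filters, a replicate block, fewer groups, leaving out each library and, added after seeing the data, a covariate.

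Members and lists were chosen with earlier results of these data known. Values per library are given for the main chains and regulators and for each member called in any irradiated comparison. List genes outside the 30 with the largest change were named after their values were seen. Of 172 list entries 169 matched a row. P-values measure the spread between libraries, which may be technical. No 2 libraries of the same group were duplicates (chi-square per degree of freedom 3.67 to 69.3 over 69 pairs). Libraries of different groups were not compared in this way. The 95% intervals of log2 fold changes use a normal approximation and include the spread between libraries, and the floor for rows at 0 covers counting error only.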

Additional observations from a re-analysis of the deposited data

Results flagged for a closer look

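In all, 7 values stood far from the rest of their group, of 132 combinations of 22 genes with a group that were looked at by Dixon's criterion, which chance alone exceeds in about 1 of 20 groups. Of these, 3 are high values of 3x0Gy library 2: H2-Eb1 was at 23206 CPM against 7324 to 7369 in the other 3 libraries, Cd74 at 11007 against 2295 to 3258, and B2m at 6292 against 4302 to 4430.5. This is also the library with 5.65% of reads outside genes, and its part in those values was not tested. Leaving it out changed the 3x4Gy call of Tapbpl only, of the 4 calls made. In the same group, Tap2 in library 1 was at 30.6 CPM against 262 to 284 in the others. Among the 7 day 13 1x20Gy libraries, Nlrc5 was low in library 3 (26.6 against 32.5 to 36.2 CPM), Tap1 was high in library 6 (455 against 313 to 357) and H2-Oa was high in library 4 (17.3 against 5.35 to 8.70).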

How the results depend on the processing

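Of 1229 values of named members recomputed under an alternative, 1145 kept their side of the threshold, 72 lost a call and 12 gained one. Of the 1145, 84 changed sign, none of them called in either fit. For 1x20Gy at day 5, limma voom gave 3 calls in place of 5, the replicate block 2 and the covariate 0. For 3x4Gy, fitting only the 2 groups gave 2 in place of 4 and the covariate 1. For the day difference DESeq2 gave 1 in place of 0. The cause was not tested. Leaving out 1 library, the counts ran from 3 to 6 (3x4Gy), 1 to 4 (1x20Gy, day 5) and 0 to 6 (day 13), with 0 to 0 in the other 4 comparisons. The activator pairs gave 0 under each alternative.

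Same-numbered libraries deviated together with r from -0.03 to 0.40 (3x4Gy), -0.26 to 0.21 (1x20Gy, day 5) and -0.03 to 0.28 (day 13). Their mean r was 0.16, 0.02 and 0.14, beside -0.04, -0.004 and -0.02 for pairs with other numbers. With only 4 same-numbered pairs in each comparison, these values cannot decide whether the numbers pair libraries. With the replicate block 3 of 4 calls remained after 3x4Gy (Tapbpl was lost and H2-T24 gained). The block left 2 of 5 after 1x20Gy at day 5 and 4 of 5 at day 13 (H2-Aa was lost and H2-T10 gained). All genes called went from 1477 to 1223, from 1019 to 876 and from 891 to 1066.

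All genes called moved by over 1.5 times with only the 2 groups (702 against 1477 after 3x4Gy), the covariate (667 against 1477) and, at day 13, library size scaling (1532 against 891); for the day difference they were 228 with DESeq2, 3 with limma voom, 5 with upper quartile scaling, 85 with no filter and 16 with the block against 51. Library size scaling moved the median of all genes by -0.10, -0.11 and -0.22. Higher calls were then 23.1%, 18.2% and 14.5% in place of 42.3%, 42.5% and 52.4%, and 28.8% and 29.8% at day 5 with upper quartile scaling. After 3x4Gy the class I median turned to -0.02 with library size scaling, -0.002 with upper quartile scaling and -0.06 with the block. The 1x20Gy class I median at day 5 turned to -0.06 with library size scaling, the class II median there was 0.20 with the covariate, and the day 13 class II median -0.20 with the block. At day 13 library size scaling split the members 1 higher and 6 lower. For 3x4Gy against 1x20Gy all genes called were 14 with DESeq2, 0 with limma voom, 5 with no filter and 1 with only the 2 groups, against 3.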
